A study of Mus musculus with 72 samples.

Results

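The comparison set 9 kidney cortex arrays at an absorbed dose of 10 Gy against 9 at 3 Gy. These 18 arrays, of 72 in the series, were chosen by their labels: all cortex arrays of both doses, 3 for each dose at 1.5, 3 and 4.5 months, and no control array. All came from Balb/c mice exposed to 177Lu (a beta-emitting isotope of lutetium used for internal radiotherapy), and total RNA was hybridized to Illumina arrays. The series also holds controls, 0.3 Gy groups and the same groups of kidney medulla. The labels give no sex, age, injected activity or form of the nuclide, nor do they state that each sample is another mouse. The p-values therefore cover the spread among the arrays as deposited, which may be technical. Each gene was read from 1 probe as log2 of the deposited intensity, and 8514 genes with an intensity of 150 or more (7.229 in log2) on all 3 arrays of at least 1 of the 6 groups were tested. The difference, 10 minus 3 Gy, was taken within each time and averaged over the 3 times, and a gene was called past an adjusted p of 0.05 in limma.

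Ionizing radiation breaks DNA, and the transcription factor p53 then switches on genes that stop the cell cycle, such as Cdkn1a, or start cell death, such as Bbc3. FOXO transcription factors, held in the cytoplasm by insulin signalling, switch on genes of fasting and of stress resistance. HSF1 switches on chaperones when proteins misfold. The kidney filters and takes up many radiolabelled peptides in the proximal tubule of the cortex, which is why the kidney can limit the dose given in such therapy.

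Some markers separated cortex from medulla and others did not. Slc14a2, the urea transporter of the inner medulla, had a median log2 intensity of 6.92 on the 18 cortex arrays and of 11.23 on the 18 medulla arrays at the same doses, while Slc22a6, an organic anion transporter of the proximal tubule, read 12.58 in cortex and 11.62 in medulla. On 4 cortex arrays Slc14a2 was over the floor: 8.92 on replicate 1 at 10 Gy and 4.5 months, 8.7 on replicate 3 at 10 Gy and 3 months, and 7.54 and 7.34 on replicates 3 and 2 at 3 Gy and 3 months. Slc34a1, a sodium-phosphate cotransporter of proximal tubule cells, did not separate the tissues, with medians of 14.52 and 14.5, nor did Lrp2, the proximal tubule receptor megalin (7.48 and 7.56), or Umod, uromodulin of the thick ascending limb (14.31 and 14.35). Xist was at 9.33 or above on each of the 18 cortex arrays and the Y-linked Eif2s3y was under the floor of 7.229 on each. Across genes, each of the 18 arrays correlated with the other 17 at a mean r of 0.973 to 0.986. The first principal component carried 28.5% of the variance. On it 8 of 9 arrays at 10 Gy lay on one side and 7 of 9 at 3 Gy on the other. The 3 Gy arrays on the 10 Gy side were replicate 1 at 1.5 months and replicate 3 at 3 months.

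By adrenal markers 1 array stood apart, replicate 3 at 3 Gy and 4.5 months. The summed log2 level of 12 adrenal markers was 13.64 there and at most 10.84 on the other 17 arrays. Cyp11b1, the steroid hydroxylase that makes corticosterone, read 12.92 on it and 6.67 to 7.65 on the others, and Star, which moves cholesterol into mitochondria for steroid synthesis, read 9.3 against 6.78 to 7.0. In all, 9 of 12 adrenal markers were higher on that array than on each of the other 17, and 1 of the 12 was among the genes tested. The same array had the highest summed level of macrophage markers, 13.94 against at most 13.4, and of neutrophil markers, 11.78 against at most 11.28. Replicate 1 at 3 Gy and 4.5 months had the highest fibroblast and pericyte level, 14.03 against at most 13.42. Results are given with and without the array with adrenal markers where it changed them. In bulk tissue, fewer cells of a type and less RNA per cell cannot be told apart.

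Averaged over the 3 times, 13 of 8514 genes (0.153%) passed the threshold, 7 higher (0.0822%) and 6 lower (0.0705%) at 10 than at 3 Gy. The higher genes were Depp1, Cdkn1a, Ltc4s, Cirbp, Txnip, Bbc3 and Prune1. The lower genes were Rcan1, Dnajb1, Mrpl34, Ammecr1l, Ier5l and Ost4. Their differences ranged in size from 0.234 to 1.27 log2 units, and the median SE over all genes was 0.0693. All 13 had the same sign at each of the 3 times, which 43.3% of all genes had. The median difference over all genes was -0.0188, and 43.5% of genes lay above 0. At an unadjusted p under 0.05 there were 1963 genes (23.1%), 919 higher (10.8%) and 1044 lower (12.3%). Doses are called apart at a time where all 3 arrays of 1 dose lie above all 3 of the other. By that measure 13.9% of all genes were apart at 1.5 months, 19.3% at 3 months and 19.4% at 4.5 months.

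The number of calls turned on single arrays. Leaving out replicate 1 at 3 Gy and 1.5 months gave 362 calls, and leaving out replicate 3 at 3 Gy and 3 months gave 435, each with all 13 genes still called. Leaving out replicate 1 at 10 Gy and 1.5 months gave 9, and replicate 3 at 10 Gy and 4.5 months gave 10. Each of the other 14 arrays, left out in turn, gave 2 to 8. Without the array with adrenal markers 2 of the 13 genes passed, Depp1 (adjusted p = 0.00425) and Mrpl34 (adjusted p = 0.013), and the other 11 had adjusted p from 0.0567 to 0.0752. All 13 kept their sign without it, at 0.937 to 1.05 times the difference over all 18 arrays. Depp1 and Mrpl34 passed in 28 of 29 alternative settings and Cdkn1a in 22, whereas the other 10 passed in 9 to 16.

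**Figure D1:**
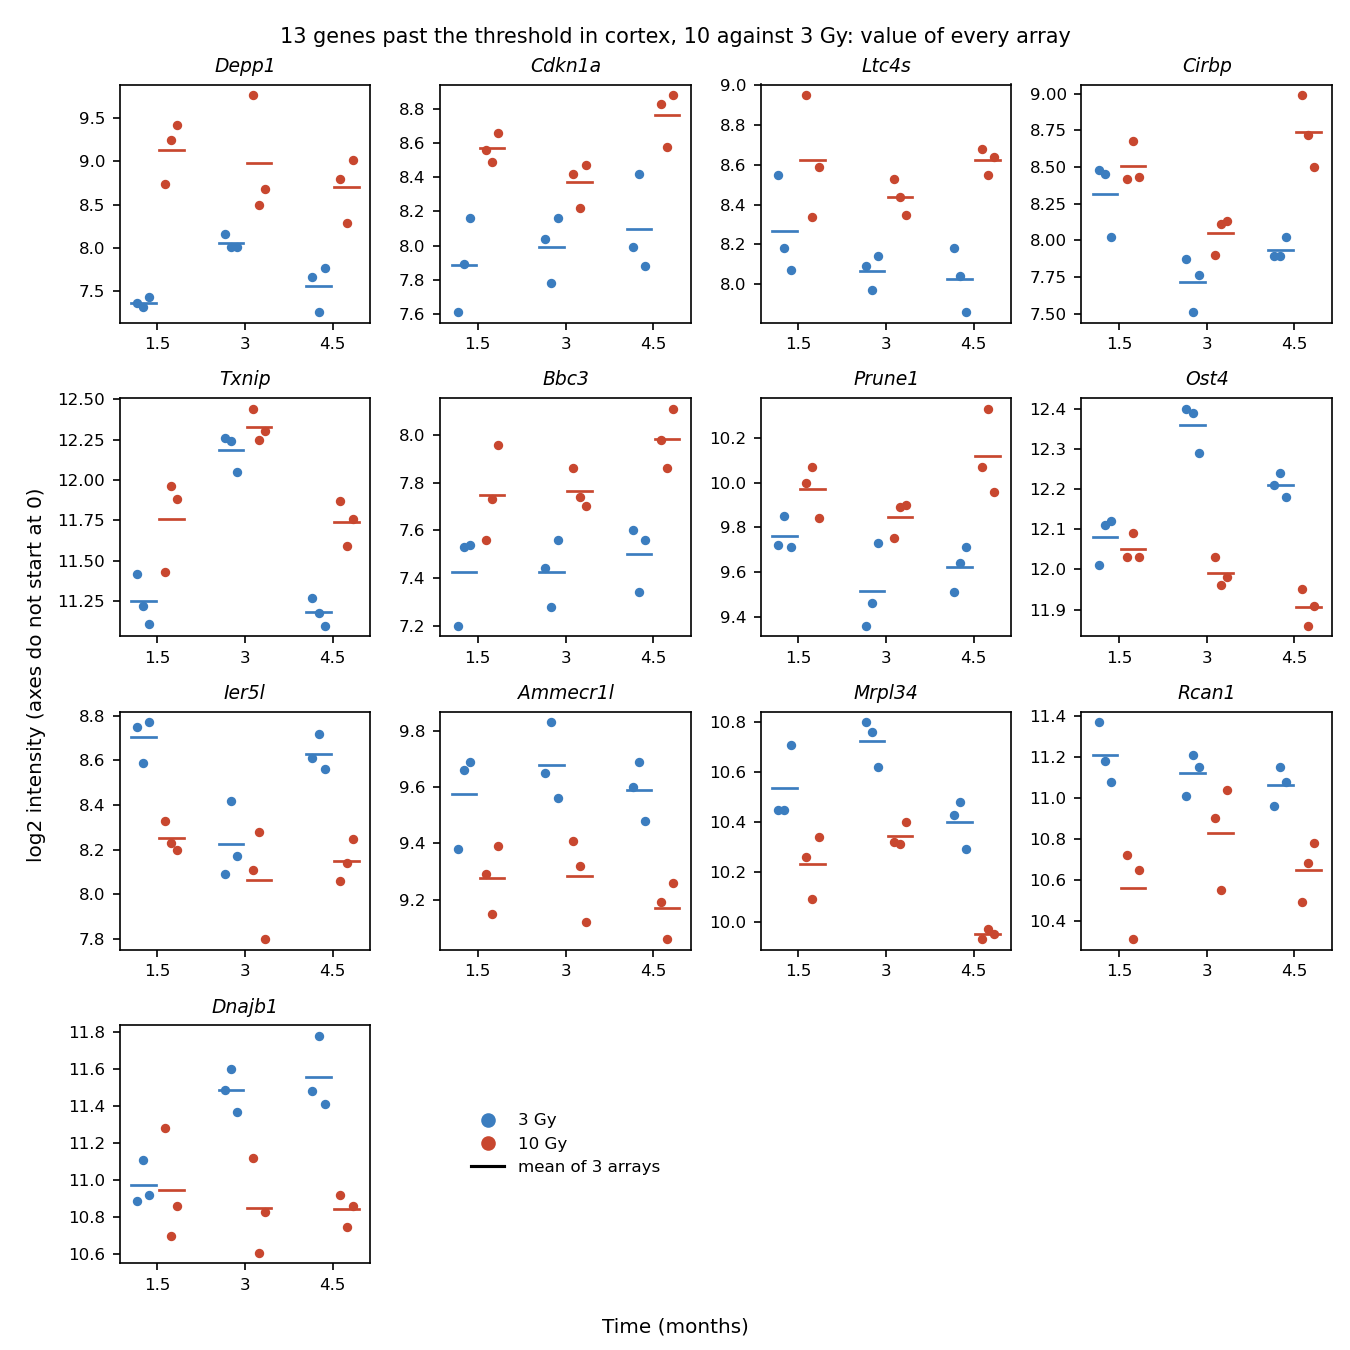
Log2 intensity of the 13 genes past the threshold on every cortex array (y axis, a separate range in each panel) by time in months (x axis); blue points are the 3 arrays at 3 Gy, red points the 3 at 10 Gy, and lines their means. The doses do not overlap at any time for Depp1, Cdkn1a, Bbc3 and Mrpl34.

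Of the p53 targets, Cdkn1a and Bbc3 rose. Cdkn1a encodes p21, an inhibitor of cyclin-dependent kinases that halts the cell cycle. At 3 Gy Cdkn1a read 7.61, 7.89 and 8.16 at 1.5 months, 8.04, 7.78 and 8.16 at 3 months, and 7.99, 8.42 and 7.88 at 4.5 months. At 10 Gy Cdkn1a read 8.56, 8.49 and 8.66, then 8.42, 8.22 and 8.47, then 8.83, 8.58 and 8.88. All 3 arrays at 10 Gy lay above all 3 at 3 Gy at each time, closest together at 3 months. The averaged difference was 0.58 ± 0.09 log2 units (SE, 9 arrays a dose; adjusted p = 0.0192), a 1.49-fold higher level. Both of its other probes also read higher, by 0.48 and 0.24.

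Bbc3 encodes Puma, a BH3-only protein that starts apoptosis at the mitochondrion. At 3 Gy Bbc3 read 7.2, 7.53 and 7.54 at 1.5 months, 7.44, 7.28 and 7.56 at 3 months, and 7.6, 7.34 and 7.56 at 4.5 months. At 10 Gy Bbc3 read 7.56, 7.73 and 7.96, then 7.86, 7.74 and 7.7, then 7.98, 7.86 and 8.11. The doses did not overlap at any time, but at 1.5 months the highest array at 3 Gy and the lowest at 10 Gy were 7.54 and 7.56. The difference was 0.38 ± 0.07 (adjusted p = 0.0465). The call rests on 1 of its 3 probes: the others, with means of 7.13 and 6.98 under the floor, differed by -0.10 and 0.07.

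Among the 21 p53 targets tested, those 2 rose and 0 fell, where 0.0822% of all genes were called higher and 0.0705% lower. The median was 0.087, with 16 above 0 and 5 below, against -0.0188 over all genes, of which 43.5% lay above 0. At an unadjusted p under 0.05 there were 3 higher and 1 lower, where 10.8% of all genes were higher and 12.3% lower. Sesn2, a sestrin that restrains mTORC1, differed by 0.22 (adjusted p = 0.15) and Pmaip1, which encodes the BH3-only protein Noxa, by -0.27 (adjusted p = 0.14). Mdm2, the ubiquitin ligase that limits p53, differed by -0.0049 ± 0.0671 and Ccng1, cyclin G1, by 0.09 ± 0.07. Of 28 DNA repair genes tested 0 passed, with a median of -0.0117, and of 21 apoptosis genes 0 passed, with a median of -0.00199.

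Of the FOXO, insulin and fasting genes, Depp1 and Txnip rose. Depp1 is a FOXO target that takes part in autophagy and had the largest averaged difference of the 13. At 3 Gy Depp1 read 7.36, 7.32 and 7.43 at 1.5 months, 8.16, 8.01 and 8.01 at 3 months, and 7.66, 7.26 and 7.77 at 4.5 months. At 10 Gy Depp1 read 8.74, 9.24 and 9.42, then 9.76, 8.49 and 8.68, then 8.8, 8.29 and 9.01. Every array at 10 Gy lay above every array at 3 Gy, all 9 against all 9. The averaged difference was 1.27 ± 0.15 (adjusted p = 0.00188), 2.41-fold, and by time it was 1.76, 0.92 and 1.14.

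Txnip binds thioredoxin and limits glucose uptake. At 3 Gy Txnip read 11.42, 11.22 and 11.11 at 1.5 months, 12.26, 12.24 and 12.05 at 3 months, and 11.27, 11.18 and 11.1 at 4.5 months. At 10 Gy Txnip read 11.43, 11.96 and 11.88, then 12.44, 12.25 and 12.3, then 11.87, 11.59 and 11.76. The doses overlapped at 3 months, when both groups stood higher than at the other times. The difference was 0.40 ± 0.07 (adjusted p = 0.0465).

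Igfbp1, which binds insulin-like growth factors and is repressed by insulin, did not pass, at 0.51 ± 0.10 (adjusted p = 0.0579). At 3 Gy Igfbp1 read 7.26, 7.31 and 7.14 at 1.5 months, 7.18, 7.45 and 7.84 at 3 months, and 7.2, 7.11 and 7.35 at 4.5 months. At 10 Gy Igfbp1 read 7.78, 8.45 and 7.81, then 7.41, 7.38 and 7.55, then 7.88, 8.31 and 7.86. The doses were apart at 1.5 and 4.5 months and overlapped at 3 months, where the difference was -0.04. Of 20 genes of the list tested, 17 lay above 0 and 3 below, 2 rose and 0 fell, and the median was 0.117. At an unadjusted p under 0.05 there were 6 higher and 1 lower, where 10.8% of all genes were higher and 12.3% lower. Pck1, the rate-limiting enzyme of gluconeogenesis, differed by 0.80 (adjusted p = 0.16), Ccng2, a cyclin under FOXO control, by 0.48 (adjusted p = 0.12), and Foxo1 itself by -0.29 (adjusted p = 0.086).

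The promoters of Txnip and Igfbp1 are shown because both genes are in that list and each window holds a match. Capitals mark the only match to GTAAACA, a FOXO site, in Txnip and to CAAAACA, an insulin response sequence, in Igfbp1. Each window is the 300 bases around the gene start in RefSeq (GRCm38.p6), both on the + strand, at chr3:96557707-96558006 for Txnip and chr11:7197537-7197836 for Igfbp1.
Txnip: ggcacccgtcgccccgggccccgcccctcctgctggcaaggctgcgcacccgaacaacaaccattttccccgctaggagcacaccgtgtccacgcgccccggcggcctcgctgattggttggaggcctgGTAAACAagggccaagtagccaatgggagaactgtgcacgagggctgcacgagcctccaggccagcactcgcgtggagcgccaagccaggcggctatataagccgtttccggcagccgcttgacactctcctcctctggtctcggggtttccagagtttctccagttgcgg
Igfbp1: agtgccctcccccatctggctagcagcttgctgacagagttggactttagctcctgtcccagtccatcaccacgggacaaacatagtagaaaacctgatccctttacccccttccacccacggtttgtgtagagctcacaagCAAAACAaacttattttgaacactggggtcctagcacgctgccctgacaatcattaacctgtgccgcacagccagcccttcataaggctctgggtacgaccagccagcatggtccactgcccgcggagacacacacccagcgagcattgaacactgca
Searched on both strands, GTAAACA was in 3.65% and CAAAACA in 6.28% of 32851 RefSeq promoter windows. In the 21 windows of the 19 list members that had one, GTAAACA was in 1 and CAAAACA in 5. The Depp1 window held neither run of letters, and the 2 motifs share the bases AAACA. Of the 13 called genes, 12 had a window.

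Dnajb1 fell among the heat shock chaperones. It encodes an Hsp40 protein that hands clients to Hsp70. At 3 Gy Dnajb1 read 10.89, 11.11 and 10.92 at 1.5 months, 11.49, 11.6 and 11.37 at 3 months, and 11.48, 11.78 and 11.41 at 4.5 months. At 10 Gy Dnajb1 read 11.28, 10.7 and 10.86, then 11.12, 10.61 and 10.83, then 10.92, 10.75 and 10.86. The doses overlapped at 1.5 months and were apart at 3 and 4.5 months, with 3 Gy higher. The averaged difference was -0.46 ± 0.09 (adjusted p = 0.0485), and by time it was -0.02, -0.64 and -0.71.

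Other chaperone genes read lower at 10 Gy without passing. Bag3, a co-chaperone of Hsp70 in selective autophagy, differed by -0.32 ± 0.06 (adjusted p = 0.0502). At 3 Gy Bag3 read 10.59, 10.67 and 10.86 at 1.5 months, 11.15, 11.07 and 11.04 at 3 months, and 11.1, 11.17 and 11.3 at 4.5 months. At 10 Gy Bag3 read 10.65, 10.53 and 10.5, then 10.81, 10.6 and 10.72, then 10.87, 10.86 and 10.48. As for Dnajb1, its doses overlapped at 1.5 months and were apart at the later times. Fkbp4, an Hsp90 co-chaperone, differed by -0.37 ± 0.08 (adjusted p = 0.07), and Stip1, which links Hsp70 to Hsp90, by -0.33 (adjusted p = 0.11). Chordc1, an Hsp90-binding protein, differed by -0.25 (adjusted p = 0.0768).

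Chordc1 at 4.5 months read 10.94, 11.15 and 11.0 at 3 Gy and 10.42, 10.46 and 10.46 at 10 Gy. The doses were apart there, as for 19.4% of all genes, with means 0.59 log2 units from each other. They overlapped at 1.5 and 3 months. The list as a whole did not lean the same way: of 23 genes tested 13 lay above 0 and 10 below, 1 fell and 0 rose, and the median was 0.115. At an unadjusted p under 0.05 there were 5 higher and 6 lower, where 10.8% of all genes were higher and 12.3% lower. Hspa4 and Hsf2 each read 0.37 higher at 10 Gy (adjusted p = 0.12 and 0.13), so the chaperone genes did not share a direction.

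The Chordc1 promoter is shown because capitals in it mark overlapping matches to the heat shock element that HSF1 binds, searched as GAA, any 2 bases, TTC, any 2 bases and GAA (RefSeq, GRCm38.p6, chr9:18292017-18292316, + strand).
Chordc1: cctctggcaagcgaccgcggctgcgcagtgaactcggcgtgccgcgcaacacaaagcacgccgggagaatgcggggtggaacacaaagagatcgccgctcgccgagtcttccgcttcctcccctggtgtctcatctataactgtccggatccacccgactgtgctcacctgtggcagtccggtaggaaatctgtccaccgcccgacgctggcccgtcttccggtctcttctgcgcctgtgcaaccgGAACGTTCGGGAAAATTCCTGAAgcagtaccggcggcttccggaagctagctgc
The stretch in capitals holds 3 overlapping matches over both strands. This element was in 198 of 32851 promoter windows (0.603%), and in 5 of the 26 windows of the 20 chaperone genes that had one. Those 5 windows belonged to Chordc1, Hspd1, Hspe1 and Hsph1. The windows of Dnajb1, Bag3, Fkbp4 and Stip1 held no match.

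Rcan1 and Ier5l fell. Rcan1 binds and inhibits calcineurin, the phosphatase that activates NFAT. At 3 Gy Rcan1 read 11.37, 11.18 and 11.08 at 1.5 months, 11.01, 11.21 and 11.15 at 3 months, and 10.96, 11.15 and 11.08 at 4.5 months. At 10 Gy Rcan1 read 10.72, 10.31 and 10.65, then 10.9, 10.55 and 11.04, then 10.49, 10.68 and 10.78. The doses were apart at 1.5 and 4.5 months, and at 3 months 1 array at 10 Gy passed the lowest at 3 Gy. The difference was -0.45 ± 0.08 (adjusted p = 0.0323), and the second probe read -0.51. Of 14 calcineurin and NFAT genes tested, 1 fell and 0 rose, with a median of -0.0506.

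Ier5l is related to the immediate early gene Ier5. At 3 Gy Ier5l read 8.75, 8.59 and 8.77 at 1.5 months, 8.09, 8.42 and 8.17 at 3 months, and 8.61, 8.72 and 8.56 at 4.5 months. At 10 Gy Ier5l read 8.33, 8.23 and 8.2, then 8.11, 8.28 and 7.8, then 8.06, 8.14 and 8.25. The doses overlapped only at 3 months, the time at which the 3 Gy arrays were low. The difference was -0.36 ± 0.07 (adjusted p = 0.0492).

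Nuak2 and Ier3, of the immediate early list, were apart at 1.5 and 4.5 months but not at 3 months. Nuak2, a kinase of the AMPK family, differed by -1.12, 0.17 and -1.15 at the 3 times and by -0.70 ± 0.15 on average (adjusted p = 0.067). Ier3, which modulates apoptosis, differed by -0.88, 0.17 and -0.64 and by -0.45 ± 0.12 on average (adjusted p = 0.0819). Neither passed the test of dose by time (adjusted p = 0.689 and 0.767). Of 19 immediate early genes tested, 13 lay above 0 and 6 below, 1 fell and 0 rose, and the median was 0.0391. Dusp1, a phosphatase of MAP kinases, differed the other way, by 0.58 (adjusted p = 0.0768).

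Mrpl34, a protein of the large subunit of the mitochondrial ribosome, fell with the smallest p of the lower genes. At 3 Gy Mrpl34 read 10.45, 10.45 and 10.71 at 1.5 months, 10.8, 10.76 and 10.62 at 3 months, and 10.43, 10.48 and 10.29 at 4.5 months. At 10 Gy Mrpl34 read 10.26, 10.09 and 10.34, then 10.32, 10.31 and 10.4, then 9.93, 9.97 and 9.95. All arrays at 10 Gy lay below all at 3 Gy at each time. The difference was -0.38 ± 0.05 (adjusted p = 0.0109), 1.3-fold lower at 10 Gy. Of 53 nuclear-encoded respiratory chain subunits tested 0 passed, with 19 above 0, 34 below and a median of -0.0439.

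Ost4, a small subunit of the oligosaccharyltransferase that attaches N-glycans, fell by 0.23 ± 0.04 (adjusted p = 0.0296). At 3 Gy Ost4 read 12.01, 12.11 and 12.12 at 1.5 months, 12.4, 12.39 and 12.29 at 3 months, and 12.21, 12.24 and 12.18 at 4.5 months. At 10 Gy Ost4 read 12.03, 12.09 and 12.03, then 12.03, 11.96 and 11.98, then 11.95, 11.86 and 11.91. The doses overlapped at 1.5 months and were far apart for their spread at the later times. Ammecr1l fell by 0.37 ± 0.07 (adjusted p = 0.0465). At 3 Gy Ammecr1l read 9.38, 9.66 and 9.69 at 1.5 months, 9.65, 9.83 and 9.56 at 3 months, and 9.6, 9.69 and 9.48 at 4.5 months. At 10 Gy Ammecr1l read 9.29, 9.15 and 9.39, then 9.41, 9.32 and 9.12, then 9.19, 9.06 and 9.26. At 1.5 months 1 array at 3 Gy lay among those at 10 Gy, and the later times were apart.

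Ltc4s, Cirbp and Prune1 rose. Ltc4s makes leukotriene C4, an inflammatory lipid, from leukotriene A4 and glutathione. At 3 Gy Ltc4s read 8.55, 8.18 and 8.07 at 1.5 months, 8.09, 7.97 and 8.14 at 3 months, and 8.18, 8.04 and 7.86 at 4.5 months. At 10 Gy Ltc4s read 8.95, 8.34 and 8.59, then 8.53, 8.44 and 8.35, then 8.68, 8.55 and 8.64. The doses overlapped at 1.5 months through 1 high array at 3 Gy. The difference was 0.44 ± 0.08 (adjusted p = 0.0485). Of 21 leukotriene and prostaglandin genes tested 1 rose and 0 fell, with 11 above 0 and 10 below. Tbxas1, thromboxane synthase, differed by 0.45 ± 0.10 (adjusted p = 0.067) and Alox5ap, which presents arachidonate to 5-lipoxygenase, by -0.01 (adjusted p = 0.95).

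Cirbp is an RNA-binding protein induced by mild cold and by other stresses. At 3 Gy Cirbp read 8.48, 8.45 and 8.02 at 1.5 months, 7.87, 7.51 and 7.76 at 3 months, and 7.89, 7.89 and 8.02 at 4.5 months. At 10 Gy Cirbp read 8.42, 8.68 and 8.43, then 7.9, 8.11 and 8.13, then 8.99, 8.72 and 8.5. The doses overlapped at 1.5 months and stood farthest apart at 4.5 months. The difference was 0.44 ± 0.08 (adjusted p = 0.0485).

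Prune1 encodes a phosphatase of short polyphosphates. At 3 Gy Prune1 read 9.72, 9.85 and 9.71 at 1.5 months, 9.36, 9.46 and 9.73 at 3 months, and 9.51, 9.64 and 9.71 at 4.5 months. At 10 Gy Prune1 read 10.0, 10.07 and 9.84, then 9.75, 9.89 and 9.9, then 10.07, 10.33 and 9.96. At 1.5 months the lowest array at 10 Gy and the highest at 3 Gy overlapped. The difference was 0.35 ± 0.07 (adjusted p = 0.0485), and it rests on 1 probe. The 3 dimmer probes of the gene differed by 0.02, -0.02 and 0.01.

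Further genes fell just short of the threshold. Crbn, the cereblon receptor of a ubiquitin ligase, differed by 0.32 ± 0.06 and Lrrc1 by 0.33 ± 0.07 (adjusted p = 0.0579 for each). Phospho2 differed by -0.24 ± 0.05 (adjusted p = 0.0581), Slc51b, a subunit of a bile acid and steroid exporter, by -0.33 ± 0.07 (adjusted p = 0.0639), and the RNA-binding protein Rbm6 by -0.22 ± 0.05 (adjusted p = 0.067). Counted by array alone, 25 genes (0.294%) did not overlap at any of the 3 times in 1 direction, 10 above (0.117%) and 15 below (0.176%). Of the 13 called genes, 4 were among them.

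Cholesterol synthesis genes had the lowest median of the gene lists, with 0 past the threshold. Of 18 tested, 13 lay below 0 and 5 above, and the median was -0.219 against -0.0188 over all genes. At an unadjusted p under 0.05 there were 9 lower, where 12.3% of all genes were, and 0 higher. Mvd, which decarboxylates mevalonate diphosphate, differed by -0.30 (adjusted p = 0.0768), Sqle, squalene epoxidase, by -0.41 ± 0.12 (adjusted p = 0.0993), Lss, lanosterol synthase, by -0.34 ± 0.10 (adjusted p = 0.0998), and Srebf2, the transcription factor that drives the pathway, by -0.27 (adjusted p = 0.11).

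Mvd read 8.63, 8.74 and 9.05 at 3 Gy and 8.6, 8.34 and 8.58 at 10 Gy at 1.5 months. At 3 months Mvd read 9.18, 8.98 and 8.93 at 3 Gy and 8.84, 8.88 and 8.6 at 10 Gy, and at 4.5 months 8.61, 8.81 and 8.88 against 8.47, 8.49 and 8.34. Its doses did not overlap at any time, though at 1.5 months the nearest arrays were 8.6 and 8.63. The list as a whole overlapped more: relative to each gene's mean over the 18 arrays, its median at 1.5 months was -0.21, -0.12 and 0.15 at 3 Gy and -0.15, -0.2 and -0.15 at 10 Gy, and at 4.5 months -0.07, -0.01 and 0.16 against -0.23, -0.09 and -0.04. At 3 months the list median was 0.28, 0.16 and 0.27 at 3 Gy and -0.14, 0.15 and 0.06 at 10 Gy. The doses overlapped at 1.5 and 4.5 months and were apart at 3 months. Idi1 and Insig1 lay the other way, at 0.25 and 0.27 (adjusted p = 0.47 and 0.51). Over the list, 15 of 18 genes were below 0 at 1.5 and at 3 months and 13 at 4.5 months.

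**Figure D2:**
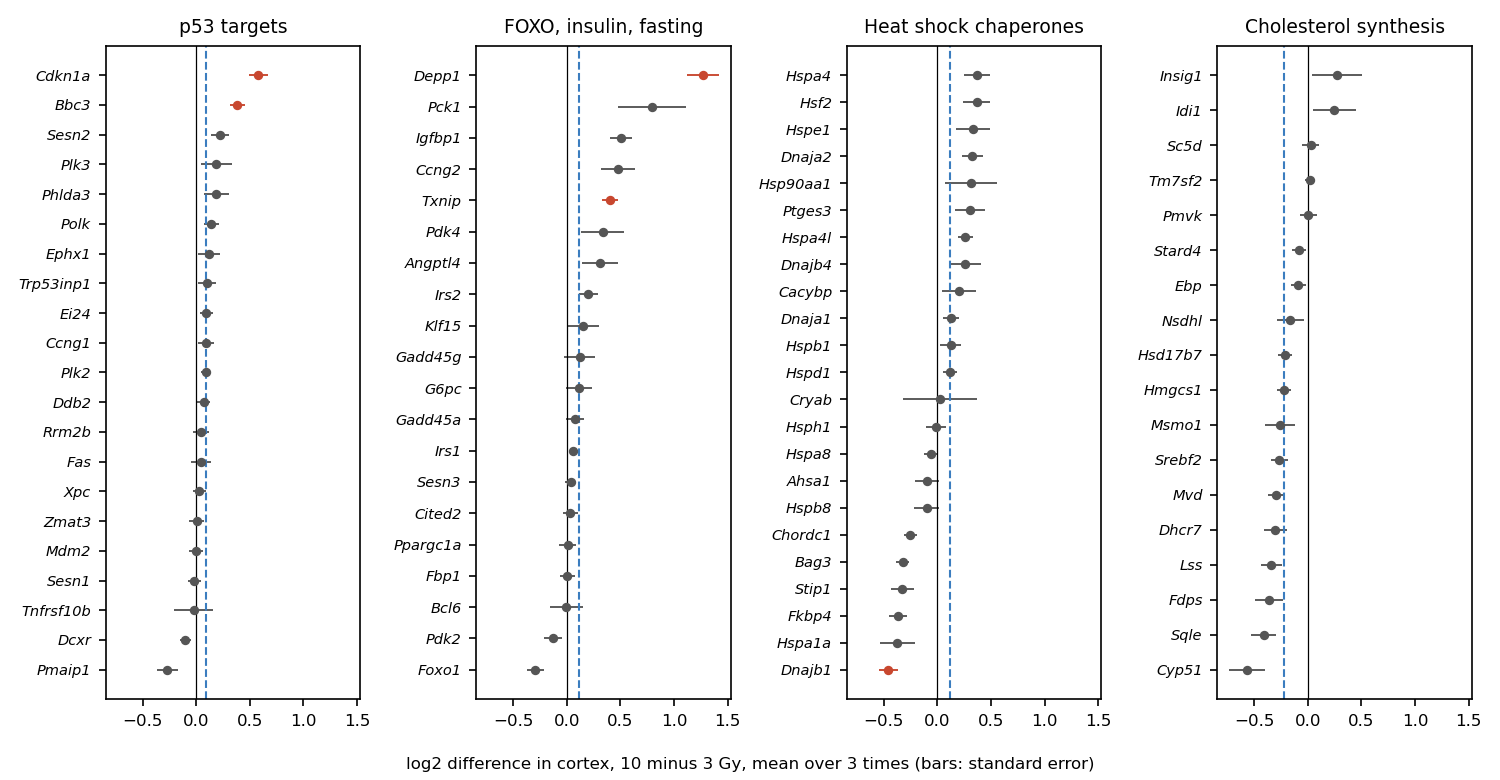
Averaged difference in cortex, 10 minus 3 Gy, in log2 units (x axis; bars are standard errors) for each tested member of 4 gene lists (y axis); red marks genes past the threshold, and dashed lines mark list medians. The medians are 0.087, 0.117, 0.115 and -0.219 from left to right, and the chaperones spread to both sides of 0.

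Genes of the extracellular matrix and TGF-beta signalling had a median of -0.12, with 24 of 32 below 0 and 8 above. Over all genes 4807 of 8514 lay below 0. 0 passed, and 6 were lower and 0 higher at an unadjusted p under 0.05, where 12.3% of all genes were lower and 10.8% higher. Col6a1, a collagen VI chain, differed by -0.41 (adjusted p = 0.12) and Sparc, a matrix glycoprotein, by -0.30 (adjusted p = 0.14). Most endothelial, fibroblast and pericyte markers also lay below 0. At an unadjusted p under 0.05, 1 of 15 endothelial and 0 of 12 fibroblast and pericyte markers were lower, and 0 were higher. Of 15 endothelial markers 14 lay below 0, with a median of -0.11, and their summed level ran from 13.52 to 13.98 at 3 Gy and from 13.35 to 13.82 at 10 Gy. Of 12 fibroblast and pericyte markers tested, 10 lay below 0 with a median of -0.0747. As chosen, that list shares Col1a1, Col1a2, Col3a1, Dcn, Lum and Acta2 with the matrix list, so its count is not independent of it. None of the 15 endothelial markers was under the floor on all arrays, and their part in the matrix values was not tested.

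At 3 months no antigen presentation or interferon gene passed. Of 28 interferon-stimulated genes 25 lay above 0 at 3 months, with a median of 0.266, against 14 at 1.5 months and 13 at 4.5 months. Over all genes 50.2% lay above 0 at 3 months. Relative to each gene's mean over the 18 arrays, the interferon median at 3 months was 0.24, -0.19 and -0.13 at 10 Gy. At 3 Gy it was -0.21, -0.31 and -0.3, so the nearest arrays of the doses were at -0.19 and -0.21. For MHC class II genes 10 of 11 lay above 0 at 3 months, with a median of 0.592. These MHC values rest on 1 array: relative to each gene's mean over the 18 arrays, the class II median at 3 months was 1.12, 0.05 and -0.31 at 10 Gy and -0.11, -0.39 and -0.31 at 3 Gy. The highest class II value of all, 1.82, was on replicate 1 at 10 Gy and 4.5 months. The neutrophil markers S100a8 and S100a9, the only 2 of that list tested, differed by 0.55 and 0.50 on average (adjusted p = 0.12 and 0.0768). S100a9 read 7.27, 7.47 and 7.34 at 3 Gy and 8.23, 8.06 and 7.83 at 10 Gy at 1.5 months, and 7.19, 7.06 and 7.36 against 8.16, 7.85 and 7.59 at 3 months. Its doses were apart at both times, as for 13.9% and 19.3% of all genes, and overlapped at 4.5 months. The following lists had medians near that of all genes, with 0 members past the threshold: 0.0409 for 34 genes of fatty acid oxidation, 0.0511 for 29 NRF2 targets, 0.0476 for 21 tubular injury genes, 0.00609 for 16 proliferation genes and -0.0662 for 12 proximal tubule markers. In that order, 6, 5, 3, 1 and 0 members were higher at an unadjusted p under 0.05, and 0, 3, 0, 0 and 1 lower. Over all genes 10.8% were higher and 12.3% lower.

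Time by time, fewer genes passed. At 1.5 months 1 gene (0.0117%) was called, Depp1, which rose by 1.76 ± 0.26 (adjusted p = 0.0355), and 534 genes (6.27%) had an unadjusted p under 0.05. This call was lost in 15 of 29 alternative settings, with adjusted p from 0.000555 to 1. Without the array with adrenal markers Depp1 did not pass at 1.5 months (adjusted p = 0.0577). Most adipocyte markers also lay above 0 at that time. Of 11 tested 10 did, where 42.8% of all genes did, with a median of 0.599 against -0.0227 over all genes. Relative to each gene's mean over the 18 arrays, their median at 1.5 months was -1.23, 0.4 and -0.47 at 3 Gy and 1.06, -0.11 and 0.17 at 10 Gy, so the doses overlapped. Over all times the summed level of 14 adipocyte markers ran from 13.77 to 15.07 at 3 Gy and from 13.91 to 15.56 at 10 Gy, with Retn alone under the floor on all arrays of both doses. At 3 and 4.5 months 7 and 8 of the 11 lay below 0, while Depp1 lay above 0, and their part in the Depp1 values was not tested.

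At 3 months limma called 0 genes (0%), with a smallest adjusted p of 0.0603 and 1109 genes (13%) at an unadjusted p under 0.05. At 4.5 months 3 genes (0.0352%) passed, Hamp, Hamp2 and Apoc4, all lower at 10 Gy, and 1097 (12.9%) had an unadjusted p under 0.05. The test of dose by time called 0 of 8514 genes, with 449 (5.27%) at an unadjusted p under 0.05. That count of calls was 2 without the array with adrenal markers (smallest adjusted p = 0.00851 against 0.0933 with it).

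Hamp encodes hepcidin, the liver hormone that blocks iron export by ferroportin, Hamp2 is its paralog in mice, and Apoc4 is an apolipoprotein. At 4.5 months Hamp read 7.75, 8.53 and 7.61 at 3 Gy and 6.85, 6.98 and 6.73 at 10 Gy. Hamp2 read 7.54, 7.74 and 7.88 against 7.04, 7.12 and 6.89, and Apoc4 read 7.28, 7.48 and 7.81 against 6.7, 6.79 and 6.89. Only the 3 Gy arrays at 4.5 months were over the floor on all 3 arrays, so these genes entered the test through the group in which they were high. Measured against the floor, Hamp was at least 1.66-fold lower at 10 Gy (adjusted p = 0.0135), Hamp2 at least 1.41-fold (adjusted p = 0.0118) and Apoc4 at least 1.23-fold (adjusted p = 0.0494). Hamp and Hamp2 are close paralogs, and whether their probes share signal was not tested. Hamp passed in 27 of 28 alternative settings that could be run for it, Hamp2 in 24 and Apoc4 in 13. Leaving out replicate 1 at 10 Gy and 4.5 months ended the call of all 3, with adjusted p of 0.0861, 0.0672 and 0.237. Without the array with adrenal markers Hamp (adjusted p = 0.0021) and Hamp2 (adjusted p = 0.0322) passed and Apoc4 (adjusted p = 0.145) did not, and the count at 4.5 months was 5 in place of 3.

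Most liver markers lay on the same side of 0 as these genes at that time. Of 11 tested, Hamp included, 10 lay below 0 at 4.5 months, with a median of -0.372 against -0.0266 over all genes. Apoa2, an apolipoprotein of HDL, read 9.98, 10.62 and 8.52 at 3 Gy and 7.85, 7.86 and 8.38 at 10 Gy at that time. Relative to each gene's mean over the 18 arrays, the list's median was 0.42, 0.68 and 0.11 on the 3 Gy arrays of 4.5 months and -0.02, -0.07 and -0.16 on those at 10 Gy. The summed level of 19 liver markers ran from 11.96 to 13.33 at 3 Gy and from 12.34 to 12.9 at 10 Gy. Alb, Fgb, Cyp2c29 and Cyp3a11 were under the floor on all arrays of both doses. Hamp, Apof and Apoh were under it on all arrays at 10 Gy. Hamp and Apof were over it on all 3 arrays at 3 Gy and 4.5 months. They entered the test through the group in which they were high, so their signs at 4.5 months are no support. The part of liver RNA in these calls was not tested.

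**Figure D3:**
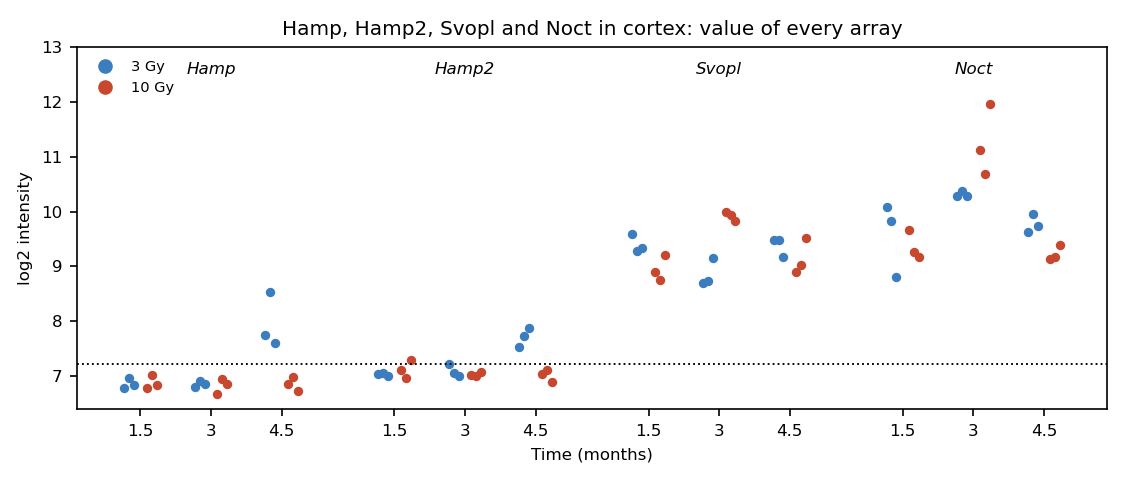
Log2 intensity on every cortex array (y axis) by time in months (x axis) for Hamp, Hamp2, Svopl and Noct; blue points are 3 Gy, red points 10 Gy, and the dotted line is the floor of 7.229. Hamp and Hamp2 stand above the floor on all 3 arrays only at 3 Gy and 4.5 months.

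Set beside the control, most of the 13 genes lay farther from it at 3 Gy than at 10 Gy, and so did most genes tested. The control mean leaves out replicate 3 at 1.5 months, which stood apart with a mean r of 0.635 to the other cortex arrays. By that mean, 3 Gy was farther from control for 10 of 13 genes, 4 of the higher and all 6 of the lower, and 10 Gy was farther for Cdkn1a, Ltc4s and Bbc3. Bbc3 was close to a tie, at 0.2 from control at 10 Gy and -0.18 at 3 Gy. Over all 8514 genes 3 Gy was farther for 62.0%, and over the 1963 genes with an unadjusted p under 0.05 for 75.4%. The share of the 13, 76.9%, is near the latter, so it is no trait of the called genes. The doses lay on opposite sides of the control for 7 of the 13, for 1611 of those 1963 and for 4125 of all 8514 genes. With all 9 control arrays the count was again 10 of 13, with a share of 60.4% over all genes and 70.9% over the 1963. The doses then lay on opposite sides for 8 of the 13, 1098 of the 1963 and 2636 of all 8514 genes. The number of genes with doses on opposite sides thus turned on 1 control array. These values use the same 3 and 10 Gy arrays as the test and are a description.

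Depp1 had a mean log2 intensity of 9.14 in controls, 7.8 at 0.3 Gy, 7.66 at 3 Gy and 8.94 at 10 Gy. Its control arrays ran from 8.47 to 10.11, above all 9 arrays at 3 Gy and overlapping those at 10 Gy. Dnajb1 read 10.74, 11.39, 11.34 and 10.88 in the same order, Rcan1 10.43, 10.95, 11.13 and 10.68, and Ier5l 8.06, 8.51, 8.52 and 8.16. By these means the 3 were high at 0.3 and 3 Gy and nearer to control at 10 Gy.

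For other genes only the mean at 3 Gy stood away, while the 3 Gy arrays overlapped those of control. Prune1 read 9.98 in controls, 9.9 at 0.3 Gy, 9.63 at 3 Gy and 9.98 at 10 Gy, and Txnip 11.86, 11.85, 11.54 and 11.94. Mrpl34 read 10.25, 10.34, 10.55 and 10.17. The 3 Gy arrays ran from 9.36 to 9.85 for Prune1, 11.1 to 12.26 for Txnip and 10.29 to 10.8 for Mrpl34. The control arrays ran from 9.74 to 10.13, 11.49 to 12.52 and 10.08 to 10.42 in that order. Cdkn1a went the other way, with 7.68 in controls and at 0.3 Gy, 7.99 at 3 Gy and 8.57 at 10 Gy, and so did Ltc4s, with 7.92, 8.02, 8.12 and 8.56. The 8 control arrays of Ltc4s ran from 7.83 to 8.14, below all 9 arrays at 10 Gy, whereas those of Cdkn1a ran from 7.31 to 9.24, past the highest array at 10 Gy.

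**Figure D4:**
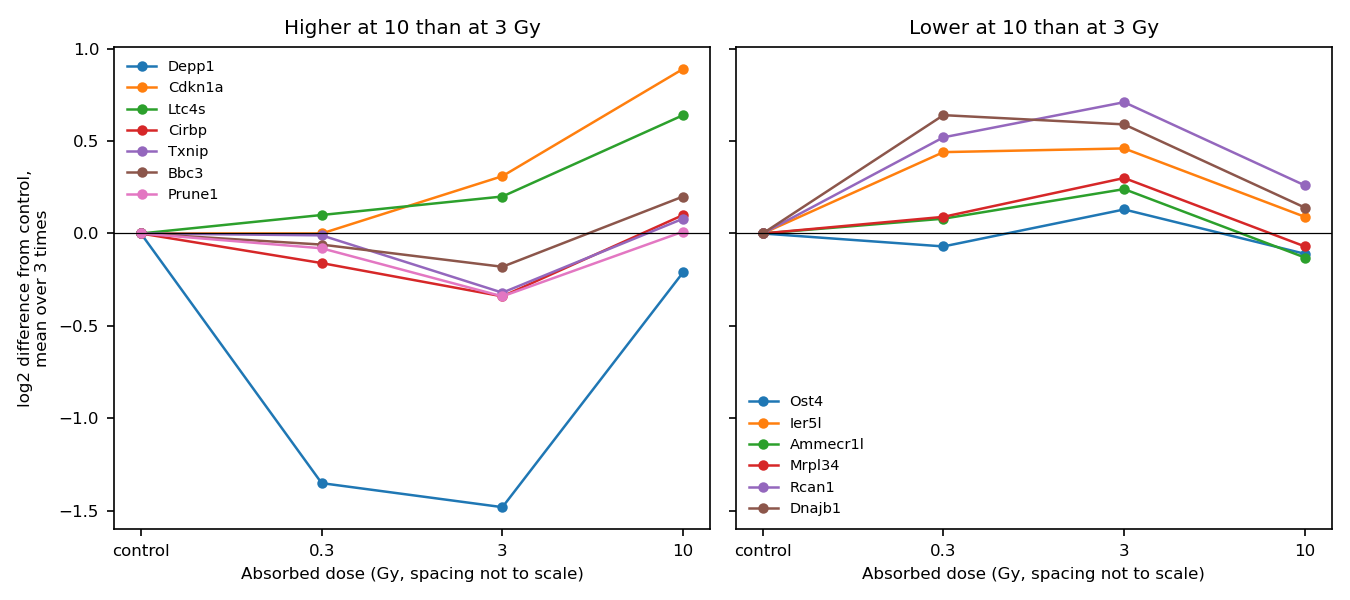
Mean log2 difference from control (y axis, mean over 3 times, control without the array that stood apart, no error shown) against absorbed dose (x axis, not to scale) for the genes higher (left) and lower (right) at 10 than at 3 Gy. Depp1 lies at -1.48 at 3 Gy and at -0.21 at 10 Gy, and Cdkn1a at 0.31 and 0.89.

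In the medulla at the same doses and times, the 13 genes had the same sign and a smaller difference, and 0 of 13 passed there, where 0.0117% of 8525 genes did. The 13 were chosen in the cortex, so a smaller value elsewhere is no test. The labels do not say whether same-numbered cortex and medulla arrays share a mouse, so the tissues may not be independent. Their deviations from group means correlated at r from -0.251 to 0.661 over 18 same-numbered pairs, with a median of 0.125. The share of all genes with the same sign in both tissues was not counted. Depp1 differed by 0.48 ± 0.09 in medulla (adjusted p = 0.14), Cdkn1a by 0.38 ± 0.09 (adjusted p = 0.207), Cirbp by 0.41 ± 0.11 (adjusted p = 0.291) and Dnajb1 by -0.31 ± 0.07 (adjusted p = 0.199). The test of cortex against medulla, over both tissues, called 0 of 8846 genes (0%), with 658 (7.44%) at an unadjusted p under 0.05 and a smallest adjusted p of 0.635. Depp1 had the smallest p of that test, with a cortex minus medulla difference of 0.79 ± 0.19 (unadjusted p = 0.000198), and Bag3, at -0.03 ± 0.06 in medulla, differed between tissues by -0.30 ± 0.08 (unadjusted p = 0.00145, adjusted p = 0.635).

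**Figure D5:**
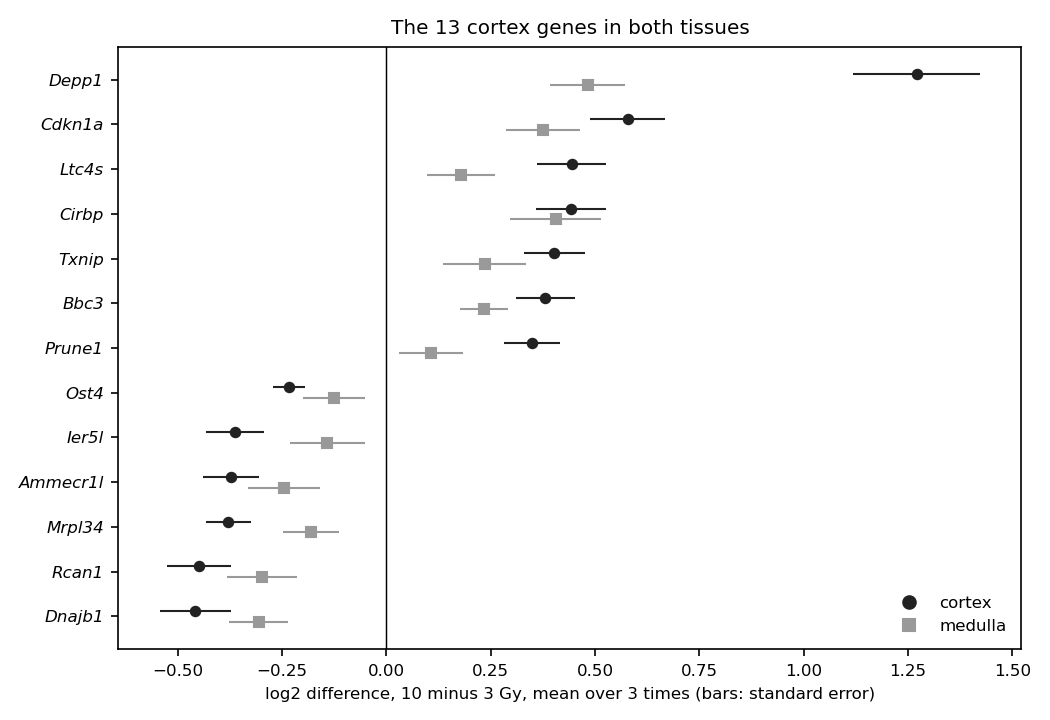
Averaged difference, 10 minus 3 Gy, in log2 units (x axis; bars are standard errors) for the 13 called genes (y axis) in cortex (black circles) and medulla (grey squares). All 13 lie on the same side of 0 in both tissues and nearer to 0 in medulla.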

How the data were processed

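Total RNA was extracted with an RNeasy Lipid Tissue kit, labelled with biotin and hybridized to Illumina arrays, per the labels' protocols. The authors deposited probe intensity on a linear scale. The numbers themselves show that the authors normalized these intensities by quantiles: sorted columns of the 72 arrays differ by at most 1.26 units, array medians run from 143.4 to 143.9, and the smallest value is 95.3. Background subtraction and software are not given in the sources used here, so fold changes of dim probes may be understated. A second deposited table with 144 columns, whose names match no label, was not used.

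Log2 was taken of each intensity as it stood. Of 25697 probes, 23978 had 1 gene symbol, 0 several and 1719 none. These cover 16593 genes, with the probe of highest mean over the 72 arrays standing for each. Genes with an intensity of 150 or more on all 3 arrays of any group were kept: 8514 in cortex, 8525 in medulla and 8846 for the tissue comparison. limma 3.58.1 in R 4.3.3 fitted a mean per group (lmFit, eBayes with trend) over the 18 arrays (12 residual degrees of freedom), or 36 for cortex against medulla. Two-sided p-values received the Benjamini-Hochberg adjustment across the genes of each comparison, with a threshold of 0.05. The fit was tested on simulated data. The number of arrays limits the precision.

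The comparison, the genes and the 49 lists (32 of genes, 17 of markers) were chosen with earlier results of these data known. Named were all genes past the threshold, the next by p up to 10 a direction, the top genes of each single time and test, up to 4 members with the smallest p of each described list, and genes that earlier results name. Other list members named in the text, namely Stip1, Hspa4, Hsf2, Srebf2, Idi1, Insig1, Alox5ap, Ccng2 and Pck1, were chosen after their values were seen. Summed marker levels are log2 of summed intensities. Promoters are RefSeq sequences of GRCm38.p6. Alternatives were no filter, a floor of 200, the mean of all probes, cyclic loess, an offset of 50, array weights, no trend, 27, 35 or 36 cortex arrays in the fit, a replicate block and each of the 18 arrays left out. Plots come from matplotlib 3.10.9 (Python 3.11.15). In the main fits, same-numbered arrays of both doses or of both tissues were not treated as pairs.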

Additional observations from a re-analysis of the deposited data

Results flagged for a closer look

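For 2 of the named genes the arrays of the doses did not overlap at 2 times, in opposite directions, which held for 111 of all 8514 genes (1.3%). Svopl, which encodes a transporter-like membrane protein, differed by -0.45 log2 units (10 minus 3 Gy) at 1.5 months and by 1.07 at 3 months. At 1.5 months it read 9.59, 9.29 and 9.33 at 3 Gy and 8.89, 8.76 and 9.2 at 10 Gy, and at 3 months 8.69, 8.73 and 9.15 against 10.0, 9.94 and 9.83. Noct, a circadian gene, differed by 0.94 at 3 months and by -0.54 at 4.5 months. At 3 months it read 10.29, 10.37 and 10.29 at 3 Gy and 11.13, 10.69 and 11.97 at 10 Gy, and at 4.5 months 9.62, 9.96 and 9.73 against 9.14, 9.18 and 9.39. Each difference between those 2 times was not tested by itself. The limma test over all 3 times gave adjusted p = 0.0933 for Svopl, the smallest of all genes, and 0.767 for Noct.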

How the results depend on the processing

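The averaged count of 13 calls became 3 with no filter, 5 with the mean of all probes, 630 with array weights, 62 over 35 cortex arrays and 0 over all 36, of which 1 control array stood apart. It ran from 2 to 435 when 1 array was left out. It stayed within 1.5 times under a floor of 200 (17), no trend (16), an offset of 50 (14), 27 exposed arrays (11) and cyclic loess (10). At 1.5 months the 1 call became 0 with the mean of all probes, an offset of 50 and 35 or 36 arrays, 9 with array weights, and 0 to 2 with 1 array left out. At 3 months the count of 0 became 1 with cyclic loess and over 35 arrays, 2 over 27, 22 with array weights, and 0 to 2 with 1 array left out. At 4.5 months the 3 calls became 0 at a floor of 200, 7 with the mean of all probes, 1 over 27 arrays, 8 over 35, and 0 to 8 with 1 array left out. Dose by time gave 1 call with array weights and 0 to 2 with 1 array left out, and cortex minus medulla gave 0 in every setting. The 13 genes kept their sign in all 377 combinations of gene and setting and their call in 193. Signs turned for Ccng1 with the mean of probes (-0.0277), for Mdm2 with cyclic loess (0.0149) and array weights (0.0004044), and for Noct with array weights (-0.0452). With 1 array left out, Mdm2 ran from -0.0383 to 0.0331 and Noct from -0.0588 to 0.164. Of 870 list medians recomputed, 3 moved by more than the spread between replicates. The causes were not tested.

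The labels tie same-numbered arrays of both doses by nothing but the number, and they were not treated as pairs. The correlation of their deviations from group means ran from -0.0929 to 0.381 over 9 pairs, with a median of 0.165 and 5 over 0.1. It was over 0.1 for 2 of 3 pairs at 1.5 months, for all 3 at 3 months (0.216 to 0.381) and for 0 of 3 at 4.5 months (-0.0678 to 0.0745). With the number within time as a replicate block, 640 genes passed in the averaged comparison and 51 at 4.5 months. Of the 18 arrays, 9 correlated best with their own number.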
